A study of Homo sapiens with 6 samples.

Results

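The response of HCT116 cells to 12 h of 5-fluorouracil (5FU) was read from 4 of the 6 arrays of the series, the 2 arrays titled HCT116 +/+ 5FU and the 2 titled HCT116 +/+ None. HCT116 is an established human colorectal carcinoma cell line. The remaining 2 arrays held HCT116 +/+ cells given Nutlin-3 (labelled Nutlin 3R); they entered the fit to estimate the spread and served as a comparison where named. The control cells are labelled as untreated, while the series' design text names DMSO, and the 5FU dose is not given in the sources used here. All genes were included that had at least 2 probe sets carrying 1 gene symbol and a mean over the 6 arrays above 4.73, the median of all probe-set means. They numbered 17841 of the 19488 genes with such a symbol in the table, with a median of 12 probe sets a gene. Nothing in the labels says that the 2 arrays of a group came from different cultures, so p-values measure only the spread between these arrays, which may be technical.

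5FU is a pyrimidine analogue that cells convert to fluorinated nucleotides. One of these blocks thymidylate synthase, the enzyme that makes thymidylate for DNA, and others are built into RNA and DNA in place of the natural base. Damage to DNA and stress of the nucleolus are both known to stabilise p53, a transcription factor that MDM2 keeps low in unstressed cells and that switches on genes of cell-cycle arrest, apoptosis, DNA repair and its own restraint. HCT116 +/+ is the usual name of the line with both copies of that gene intact.

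Human Exon 1.0 ST arrays carry probe sets along the exons of each gene, so a gene was measured several times on each array. A gene's level is the mean of its probe sets' deposited log2 values, a difference is 5FU minus control on the log2 scale, and fold is that difference on the linear scale. Between arrays, gene levels correlated at 0.92 to 0.981, and a gene's residual SD had a median of 0.161. Epithelial genes were measured at control means of 9.49 for EPCAM, 11.15 for KRT8 and 11.02 for KRT18. As a list, the 16 measured colonic epithelial markers had a median control level of only 6.63. That was close to the 6.30 of silent tissue genes, 6.23 of fibroblast markers and 6.49 of blood cell markers. The 28 measured genes of silent tissues, the 13 fibroblast markers and the 12 blood cell markers had median differences of -0.04, -0.03 and -0.06. RMA values carry no detection call, so none of these markers can be said to be at 0. The highest value on an array was 14.2 to 14.3 on the control and Nutlin-3 arrays and 15.995 and 15.997 on the 5FU arrays.

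After 5FU, 80 genes passed limma's test at a Benjamini-Hochberg adjusted p below 0.05, which is 0.448% of the genes tested. Higher were 59 (0.331%) and lower 21 (0.118%), and 72 of the 80 changed at least 2-fold. The rises were led by SERPINB5, TP53I3, GDF15, TLR3 and FAS, and the falls by H2BC14, DHX32 and other histone genes. The middle of the transcriptome stayed near 0: the median difference was 0.00, and the 1st and 99th percentiles were -0.65 and 0.87. At an unadjusted p below 0.05 there were 1915 genes. The 2 groups did not overlap for 38% of genes, 20% higher and 18% lower. With 2 arrays a group an exact permutation test of 1 gene cannot go below p = 0.333, so the calls depend on limma's pooling of variance over genes. The number of calls was 1 to 4 when any 1 of the control or 5FU arrays was left out, 204 with arrays centred on the medians of their used probe sets and 14 when centred on the medians of all their probe sets, and all 80 genes kept their direction in each of these.

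**Figure D1:**
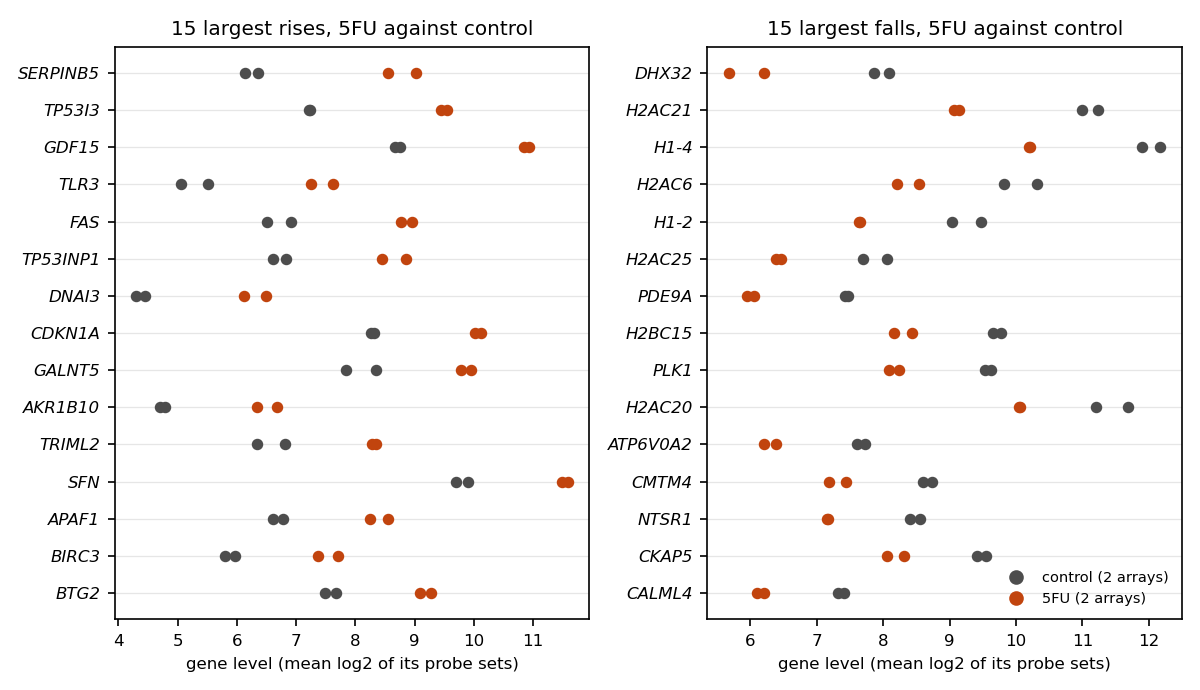
Gene levels (mean log2 of a gene's probe sets, x axis) on the 2 control and 2 5FU arrays for the 15 largest rises (left) and the 15 largest falls (right) among called genes with at least 3 probe sets. Each point is 1 array, and in no row do the groups overlap; SERPINB5 read 6.14 to 6.36 in control and 8.55 to 9.03 after 5FU.

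Genes that p53 is known to activate were the largest group among the rises. Of 85 listed targets 82 were measured, 24 were called higher and none lower, 75 had a positive difference, and the median difference was 0.88, against 0.00 over all genes. The list was drawn up with results of these arrays known, so its direction is not independent evidence. Among its 14 measured genes of cell-cycle arrest and growth, 9 were called and the median was 1.51. GDF15, a TGF-beta superfamily member that cells secrete, read 8.76 and 8.67 in control and 10.85 and 10.94 after 5FU. That is a 4.53-fold rise (log2 2.18, SE 0.13, adjusted p = 0.00357) and the groups did not overlap. CDKN1A, the cyclin-dependent kinase inhibitor p21, read 8.32 and 8.27 against 10.12 and 10.03, a 3.43-fold rise (adjusted p = 0.00751). SFN, the 14-3-3 protein that holds cyclin B and CDK1 in the cytoplasm, went from 9.90 and 9.70 to 11.59 and 11.49 (3.34-fold, adjusted p = 0.0137). TP53INP1, a nuclear protein that also takes part in autophagy, rose 3.83-fold, the antiproliferative gene BTG2 3.03-fold and the growth-arrest gene GADD45A 2.69-fold. SESN2, which restrains mTORC1, rose 2.06-fold, the kinase gene PLK3 2.13-fold and the repressor gene PRDM1 2.34-fold. PLK2 and SESN1 had differences of 1.79 and 1.74 but did not pass the test.

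Of 17 measured apoptosis targets, 4 were called, all 17 had positive differences and the median was 0.67. FAS, a death receptor, read 6.92 and 6.52 in control and 8.78 and 8.95 after 5FU, a 4.43-fold rise (log2 2.15, SE 0.19, adjusted p = 0.0197). APAF1, the scaffold of the apoptosome, read 6.79 and 6.61 against 8.24 and 8.55 (3.24-fold, adjusted p = 0.0295). The TRAIL receptor genes TNFRSF10B and TNFRSF10D rose 2.12-fold and 2.18-fold. The BH3-only genes PMAIP1 (NOXA) and BBC3 (PUMA) differed by 1.23 and 0.32 and BAX by 0.49, and none of the 3 passed the test.

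Of 8 measured genes of feedback on p53, 3 were called and the median was 0.77. MDM2, the ubiquitin ligase that marks p53 for destruction, read 8.64 and 8.57 in control and 10.04 and 10.31 after 5FU (2.96-fold, log2 1.57, SE 0.18, adjusted p = 0.0283). PPM1D, the phosphatase WIP1, rose 2.49-fold and SUSD6 2.95-fold. MDM4, the relative of MDM2, differed by -0.12.

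Of 7 repair targets 1 was called, DDB2, the damage sensor of nucleotide excision repair, at 2.2-fold. POLH, the translesion polymerase, and RRM2B, the p53-inducible subunit of ribonucleotide reductase, differed by 1.34 and 1.06 without passing. Of 11 targets in metabolism and redox, 2 were called: TP53I3 and ABHD4. TP53I3, an oxidoreductase, read 7.23 and 7.22 in control and 9.54 and 9.45 after 5FU, a 4.82-fold rise (log2 2.27, SE 0.13, adjusted p = 0.00356). The groups did not overlap.

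Of 25 targets at the membrane, secreted or of other kinds, 5 were called and the median was 0.85. SERPINB5, which encodes maspin, read 6.36 and 6.14 in control and 8.55 and 9.03 after 5FU, the largest rise of any called gene at 5.81-fold (log2 2.54, SE 0.25, adjusted p = 0.026). TLR3, the endosomal receptor for double-stranded RNA, read 5.51 and 5.05 against 7.26 and 7.62 (4.46-fold, adjusted p = 0.026). CYFIP2 rose 2.69-fold, BLOC1S2 2.72-fold and the ephrin receptor gene EPHA2 2.16-fold.

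A further 28 called rises were in none of the lists. DNAI3, a dynein intermediate chain of motile cilia, read 4.46 and 4.31 in control and 6.12 and 6.49 after 5FU (3.8-fold, adjusted p = 0.0264), and its control mean lay below the probe-set filter, so the size of its rise is less certain; the same holds for LSMEM1, at 2.77-fold. GALNT5, which starts O-linked glycosylation, rose 3.42-fold from 8.36 and 7.84 to 9.79 and 9.95. TRIML2 rose 3.34-fold from 6.81 and 6.34 to 8.28 and 8.35. Outside the 15 largest, and picked here after their values were seen, the EGF receptor ligand genes HBEGF and TGFA rose 2.73-fold and 2.17-fold, the signal transducers STAT3 and STAT4 2.07-fold and 2.13-fold, and the ephrin gene EFNB1 2.13-fold. The basal keratin gene KRT15 rose 1.99-fold, the epidermal regulator gene GRHL3 2.43-fold, the syndecan gene SDC4 2.15-fold, the cytidine deaminase gene APOBEC3C 2.29-fold and ACER2, an alkaline ceramidase gene, 2.28-fold. BCYRN1, a small non-coding RNA related to Alu repeats whose probe sets may also bind other repeat RNA, rose 2.4-fold.

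**Figure D2:**
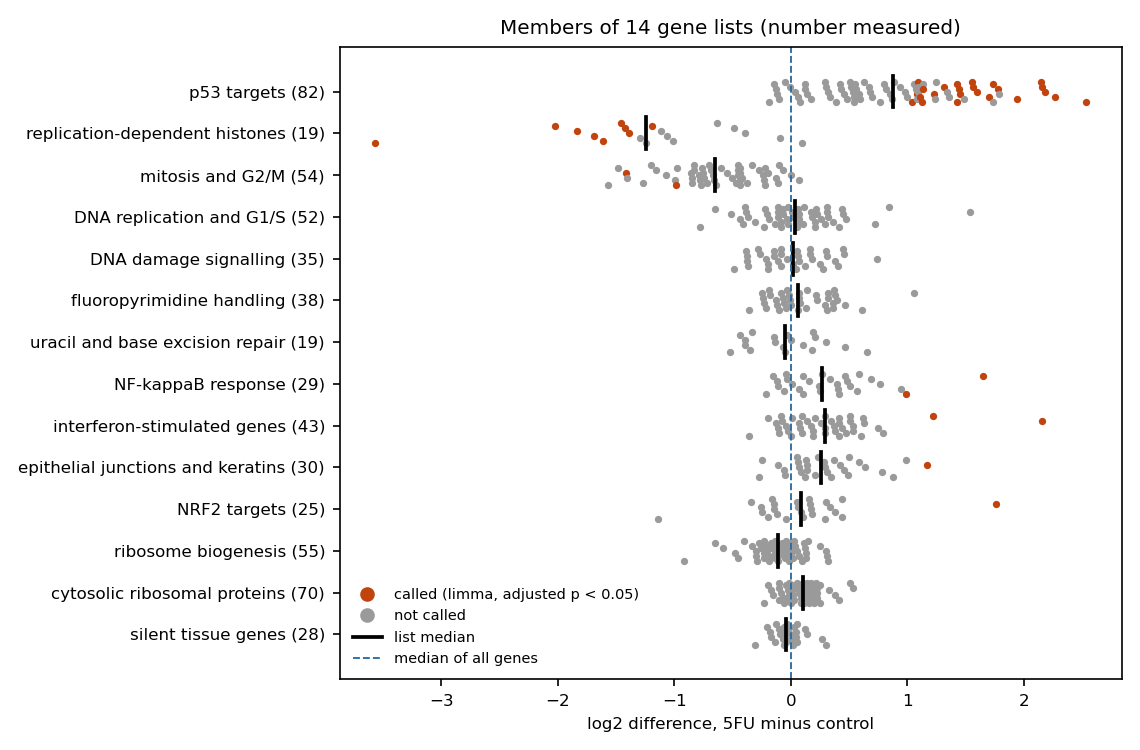
Log2 differences, 5FU minus control (x axis), of the members of 14 gene lists, with the number measured beside each name. Points are genes (orange where called by limma), black bars the list medians and the dashed line the median of all genes; p53 targets lie to the right at a median of 0.88, and replication-dependent histones to the left at -1.24.

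Histone genes were the largest group among the falls. Replication-dependent histone genes are expressed in S phase, and their mRNAs end in a stem-loop in place of a poly(A) tail. Of 57 listed genes 19 were measured, 9 were called lower and none higher, 18 had a negative difference and the median was -1.24. H2BC14, an H2B gene with only 2 probe sets, read 11.52 and 11.46 in control and 7.97 and 7.87 after 5FU, 11.8-fold lower (log2 -3.56, SE 0.13, adjusted p = 0.000342). H2AC21 read 11.24 and 10.9984 against 9.14 and 9.06 (4.05-fold lower, adjusted p = 0.00751), and the linker histone gene H1-4 read 12.18 and 11.90 against 10.19 and 10.22 (3.56-fold lower, adjusted p = 0.019). H2AC6, H1-2, H2AC25, H2BC15, H2AC20 and H2BC11 were between 3.23-fold and 2.28-fold lower. No replicate pair of these 9 genes spanned the gap between the groups. Histone genes are near-identical in sequence, so probe sets may share signal between copies. The 10 measured replication-independent histone genes, which are expressed outside S phase as well, had 0 calls and a median of -0.23; the centromeric histone gene CENPA differed by -0.72 and H2AX by -0.61.

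The promoters of the most reduced histone genes are shown because members of the family fell together. The 250 bases before the start of H2BC14 (chr6:27814772-27815021, plus strand, GRCh38.p14) and of H2AC21 (chr1:149887966-149888215, minus strand) were taken from RefSeq and are printed 5′ to 3′ on the gene's strand. Capitals mark an octamer (ATTTGCAT), a TATA box (TATAAA) or a CCAAT box (CCAAT), each searched on both strands.
H2BC14: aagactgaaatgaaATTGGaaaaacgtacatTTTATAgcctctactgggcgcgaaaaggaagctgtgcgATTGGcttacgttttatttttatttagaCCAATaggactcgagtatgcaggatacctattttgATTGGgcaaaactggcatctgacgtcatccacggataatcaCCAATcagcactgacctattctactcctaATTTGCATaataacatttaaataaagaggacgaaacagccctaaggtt
H2AC21: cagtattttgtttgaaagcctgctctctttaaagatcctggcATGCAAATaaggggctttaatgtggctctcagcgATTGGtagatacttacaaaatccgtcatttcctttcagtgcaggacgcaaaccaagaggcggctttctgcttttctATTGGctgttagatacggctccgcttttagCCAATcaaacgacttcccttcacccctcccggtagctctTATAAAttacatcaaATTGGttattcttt
H2BC14 held its octamer 48 and its TATA match 219 bases before the start, and 5 CCAAT boxes. H2AC21 held its TATA box 29 and its octamer 208 bases before the start, and 4 CCAAT boxes. Matches at any position in the window were counted. All 9 called histone genes had a CCAAT box in this window, 5 had an octamer (55.6%) and 6 a TATA box (66.7%). Of 27305 promoters of the same length 33% held a CCAAT box, 1.66% the octamer and 11.1% a TATA box. Histone genes that were not called held them as well, with an octamer in 9 of the 18 measured histone genes that had a promoter in the table.

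Genes of mitosis and G2/M were lower as a list, though few passed alone. Of 54 measured, 2 were called lower and none higher, 52 had a negative difference and the median was -0.65. PLK1, the polo-like kinase that drives entry into mitosis, read 9.54 and 9.62 in control and 8.09 and 8.24 after 5FU, 2.67-fold lower (log2 -1.42, SE 0.15, adjusted p = 0.026). CDC20, the activator of the anaphase-promoting complex, read 10.29 and 10.08 against 9.14 and 9.26 (1.98-fold lower, adjusted p = 0.0451). AURKA and BUB1B had larger or similar differences of -1.57 and -1.48, and CCNB1 one of -1.20, without passing. FOXM1 and MAD2L1, picked here as the members nearest to a rise, differed by 0.00 and 0.07. The list's median was -0.40 without control replicate 1 and -0.79 without control replicate 2.

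The promoters of the 2 called mitotic genes, PLK1 (chr16:23678639-23678888, plus strand) and CDC20 (chr1:43358731-43358980, plus strand), are given with the CHR element (TTTGAA, both strands), known from promoters of cell-cycle genes, and CCAAT boxes in capitals.
PLK1: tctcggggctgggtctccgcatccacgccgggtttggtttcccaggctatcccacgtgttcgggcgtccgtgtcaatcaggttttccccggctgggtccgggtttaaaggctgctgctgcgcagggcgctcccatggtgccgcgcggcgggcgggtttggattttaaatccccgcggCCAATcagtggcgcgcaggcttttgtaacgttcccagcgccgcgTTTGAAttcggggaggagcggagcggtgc
CDC20: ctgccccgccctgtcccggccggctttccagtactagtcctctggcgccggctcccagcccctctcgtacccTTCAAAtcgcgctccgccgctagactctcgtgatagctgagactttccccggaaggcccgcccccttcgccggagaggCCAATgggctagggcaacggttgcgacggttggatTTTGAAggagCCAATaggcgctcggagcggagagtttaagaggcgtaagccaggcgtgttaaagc
In PLK1 the CHR element lay 29 and the CCAAT box 73 bases before the start. A CHR element was in 23 of 46 promoters of measured mitotic genes (50%) and in 13.6% of all promoters, and a CCAAT box in 36 of the 46 (78.3%).

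Outside the histone and mitosis lists, 10 genes were called lower. DHX32, a member of the DEAH-box helicase family, read 8.09 and 7.87 in control and 5.68 and 6.21 after 5FU, 4.1-fold lower (log2 -2.04, SE 0.24, adjusted p = 0.0295). PDE9A, a phosphodiesterase of cyclic GMP, read 7.47 and 7.42 against 5.95 and 6.05 (2.72-fold lower, adjusted p = 0.026), and NTSR1, the neurotensin receptor, 8.40 and 8.55 against 7.17 and 7.15 (2.5-fold lower, adjusted p = 0.026). CMTM4, a membrane protein gene, was 2.58-fold lower, as was ATP6V0A2, a subunit of the vacuolar proton pump. CKAP5, which encodes a microtubule polymerase, was 2.44-fold lower and CALML4, a calmodulin-like gene, 2.31-fold lower. ASB13, ADCK1 and the olfactory receptor gene OR8D2, which had 2 probe sets, were 1.94-fold, 1.92-fold and 1.93-fold lower.

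Setting the 5FU arrays against the Nutlin-3 arrays separated a small part of these changes. In that contrast limma called 113 genes (0.633%), and 8 of them were among the 80. DHX32 was 2.03 lower on the log2 scale after 5FU than after Nutlin-3 (adjusted p = 0.0287), NTSR1 1.60 lower (adjusted p = 0.00944), CMTM4 1.29 lower and PDE9A 1.21 lower (both adjusted p = 0.031), and OR8D2 0.94 lower (adjusted p = 0.0435). BCYRN1 was 1.29 higher (adjusted p = 0.0149), HBEGF 0.96 higher (adjusted p = 0.0417) and CXCL8 0.95 higher (adjusted p = 0.0378). The other 72 did not pass, which does not show that the drugs act alike on them. Of the p53 targets, none was called in this contrast: for CDKN1A the difference was -0.32 with a 95% interval from -0.61 to -0.02, and for GDF15 -0.14, from -0.45 to 0.16.

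Genes that carry, activate or clear fluoropyrimidines showed no call among 38 measured, and their median difference was 0.07. TYMS, which encodes the thymidylate synthase that 5FU inhibits, read 10.51 and 10.38 in control and 10.44 and 10.59 after 5FU, and the groups overlapped (difference 0.07, 95% interval -0.31 to 0.44). DPYD, which encodes the enzyme that breaks 5FU down, differed by 0.36 (interval 0.02 to 0.71, adjusted p = 0.438). UMPS and TK1, which make nucleotides from 5FU or its deoxynucleoside, differed by 0.32 and 0.23. The phosphorylase genes TYMP and UPP1, whose enzymes join 5FU to a sugar to give nucleosides, differed by -0.06 and -0.04. DUT, which clears dUTP, differed by -0.08, RRM2 by 0.29 and the nucleoside transporter gene SLC29A1 by 0.07. The largest difference in the list was that of RRM2B, at 1.06 (adjusted p = 0.101), followed by the efflux pump gene ABCG2 at 0.61.

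In uracil and base excision repair 0 of 19 genes were called, with a median of -0.05. UNG, the uracil DNA glycosylase, read 8.53 and 8.59 against 8.39 and 8.63 (difference -0.05, interval -0.42 to 0.33). POLB and NTHL1 had the largest differences, 0.65 and -0.52. In DNA replication and G1/S 0 of 52 were called, with a median of 0.04. CCNE2, which encodes cyclin E2, read 7.78 and 7.28 against 8.77 and 9.36, and its difference of 1.54 did not pass (adjusted p = 0.0927); E2F7, a repressor of E2F targets, differed by 0.84. Against Nutlin-3 rather than control, 28 of the 52 were called higher after 5FU, and 102 of all 17841 genes. Relative to the control mean, the list's median was -1.35 and -1.09 on the Nutlin-3 arrays. It was -0.06 and 0.11 on the 5FU arrays, so the contrast reflects lower values after Nutlin-3. Mismatch repair (6 measured, median 0.21) and DNA damage signalling (35 measured, median 0.02) had no call. Their largest differences were those of MSH3 and EXO1, at 0.39 and 0.31, and of RAD54L and BRCA1, at 0.74 and -0.49.

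Genes of the NF-kappaB response and interferon-stimulated genes had medians of 0.27 and 0.29, each with 2 calls. BIRC3, the ubiquitin ligase cIAP2, read 5.81 and 5.97 in control and 7.37 and 7.71 after 5FU, a 3.14-fold rise (log2 1.65, SE 0.19, adjusted p = 0.0283). CXCL8, the chemokine interleukin 8, read 5.76 and 5.83 against 6.73 and 6.84 (1.99-fold, adjusted p = 0.0379). Of the 29 measured genes of this list 22 had a positive difference; IL6 and TNF differed by -0.21 and 0.01. Of 43 interferon-stimulated genes 34 had a positive difference, and the 2 called were TLR3 and TAP1, the peptide transporter of antigen presentation, at 2.33-fold. TLR3 is also in the list of p53 targets. IFIT2 and ISG15 differed by 0.75 and 0.54 and MX1 by -0.08, and none of the 3 passed. Beside these, the 12 blood cell markers ranged from -0.35 to 0.42 with 0 calls.

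The promoter of BIRC3 (chr11:102317234-102317483, plus strand) is printed because its NF-kappaB sites, searched by their consensus on both strands and set in capitals, could be read directly.
BIRC3: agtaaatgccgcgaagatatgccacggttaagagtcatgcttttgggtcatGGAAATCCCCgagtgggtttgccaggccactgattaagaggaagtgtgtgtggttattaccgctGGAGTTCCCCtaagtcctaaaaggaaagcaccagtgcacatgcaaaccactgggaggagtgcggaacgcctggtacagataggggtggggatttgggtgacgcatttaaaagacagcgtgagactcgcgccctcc
It held 2 such sites. CXCL8, the other called gene of the NF-kappaB list, held none by the same search. That search allowed no mismatch to a consensus of 10 bases, so CXCL8 cannot be said to lack a site. A site was in 5 of the 47 promoters found for called rises (10.6%), against 5.05% of all promoters and 5.88% of those of genes tested. An element of 2 adjoining p53 decamers was searched for, with up to 2 mismatches allowed outside the fixed C and G. It was in 3 of 69 promoters of measured p53 targets (4.35%), in none of those of called targets and in 0.231% of all promoters. Only the 250 bases before a gene's first listed start were searched. Elements farther upstream or within genes were not looked for, so the called targets cannot be said to lack them.

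The remaining lists held 1 call or none. AKR1B10, an aldo-keto reductase and the 1 called gene of 25 NRF2 targets, read 4.79 and 4.69 in control and 6.34 and 6.67 after 5FU (3.39-fold, adjusted p = 0.026), while the cystine transporter gene SLC7A11 of the same list differed by -1.14. HSD17B7, a cholesterol synthesis gene, rose 2.51-fold while 19 of the 27 measured genes of its list had a negative difference. LAMA3, the laminin alpha-3 chain of epithelial basement membranes, rose 2.24-fold and was the 1 call among 30 junction and keratin genes, 25 of which had a positive difference. ACTA2, smooth-muscle actin, rose 2.51-fold, while the other 12 measured fibroblast markers ranged from -0.09 to 0.22; ACTA2 lies beside FAS, and the use of strand in the probe sets was not tested. Cytosolic ribosomal proteins (70 measured, median 0.11), ribosome biogenesis (55, median -0.11), RNA exosome subunits (20, median -0.05), pseudouridine synthases and H/ACA proteins (18, median -0.05), snoRNA host genes (20, median 0.09), spliceosome (61, median 0.04) and oxidative phosphorylation (71, median 0.16) had 0 calls. So did heat shock (19, median -0.12), Wnt targets (21, median -0.08), immediate early genes (28, median 0.22), aminoacyl-tRNA synthetases (15, median -0.15), histone mRNA processing (10, median -0.14) and colonic epithelial markers (16, median 0.08). None of the following passed the test, and each pair has the largest differences of its list. The splicing-factor kinase genes CLK4 and CLK1 differed by 1.07 and 0.73, UTP20 and NOL10 of ribosome biogenesis by -0.92 and -0.65, and NDUFB3 and COX7A2 of the respiratory chain by 0.86 and 0.76. The immediate early genes JUN and CCN1 differed by 0.78 and 0.77, the ribosomal protein genes RPL39 and RPL27A by 0.53 and 0.51, and the chaperone genes DNAJB4 and HSPH1 by 0.68 and -0.43. The ephrin receptor genes EPHB3 and EPHB2, both Wnt targets, differed by 0.63 and -0.40. In RNA processing DIS3L and EXOSC8 of the exosome list differed by -0.63 and -0.46, RPUSD4 and PUS3 of the pseudouridine list by -0.65 and 0.47, the host genes SNHG12 and DANCR by 0.46 and 0.44, and CASP8AP2 and ERI1 of histone mRNA processing by 0.57 and -0.50. The tRNA synthetase genes CARS1 and FARSA differed by -0.65 and -0.39. Among the marker lists CEACAM6 and KRT19 (colonic) differed by -0.39 and 0.21, CD14 and MS4A1 (blood) by 0.42 and -0.35, and AMELX and NEUROD1 (silent tissues) by -0.30 and 0.30. The 1 call each of the integrated stress response (31, median -0.03) and of autophagy and lysosome (37, median 0.12) were SESN2 and TP53INP1, named above.

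Within genes, the probe sets of the largest rises and falls moved together but not evenly. All 8 probe sets of GDF15 rose by at least 1, from 1.77 to 2.78. In SERPINB5 all 12 rose, from 0.50 to 4.32, and in TLR3 all 12, from 0.78 to 2.89. CDKN1A ranged from 0.30 to 2.84 over 9 probe sets and DNAI3 from 0.42 to 3.79 over 22. TP53I3 and FAS each had 1 probe set that did not rise, at -0.06 and -0.19, beside others at up to 3.83 and 3.93. Among the falls, all 14 probe sets of DHX32 were lower, from -2.75 to -0.35, and 23 of 24 of PDE9A, from -3.27 to 0.44. H2AC6 and H1-2 each held 1 probe set with a positive difference, 0.98 and 0.53, beside 4 that fell.

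Many of the probe sets that did not move stood at the 5′ end. Probe-set numbers rose with gene starts along the chromosomes on both strands (44 sets of chromosome and strand, median Spearman rho 0.98, range 0.88 to 1), so the order within a gene was inferred from the numbers and the gene's strand; positions are not given in the files. For the 51 called genes with at least 8 probe sets and a known strand, a probe set counted as moved if its difference was at least 1 in the gene's direction and its groups did not overlap. Of their 961 probe sets 291 had not moved: 155 before the first moved one, 128 between moved ones and 8 after the last. In 21 of the 51 genes more unmoved probe sets lay inside than before the first moved one, as in ADCK1, with 7 inside and 1 before. A run of probe sets that had not moved stood before the first moved one in 42 genes, and a run after the last moved one in 5. The run was longer at the 5′ end in 39 genes, longer at the 3′ end in 1 and equal in 11. In the 42 genes the mean control level of the 5′ run was above that of the rest in 25 and below it in 17.

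**Figure D3:**
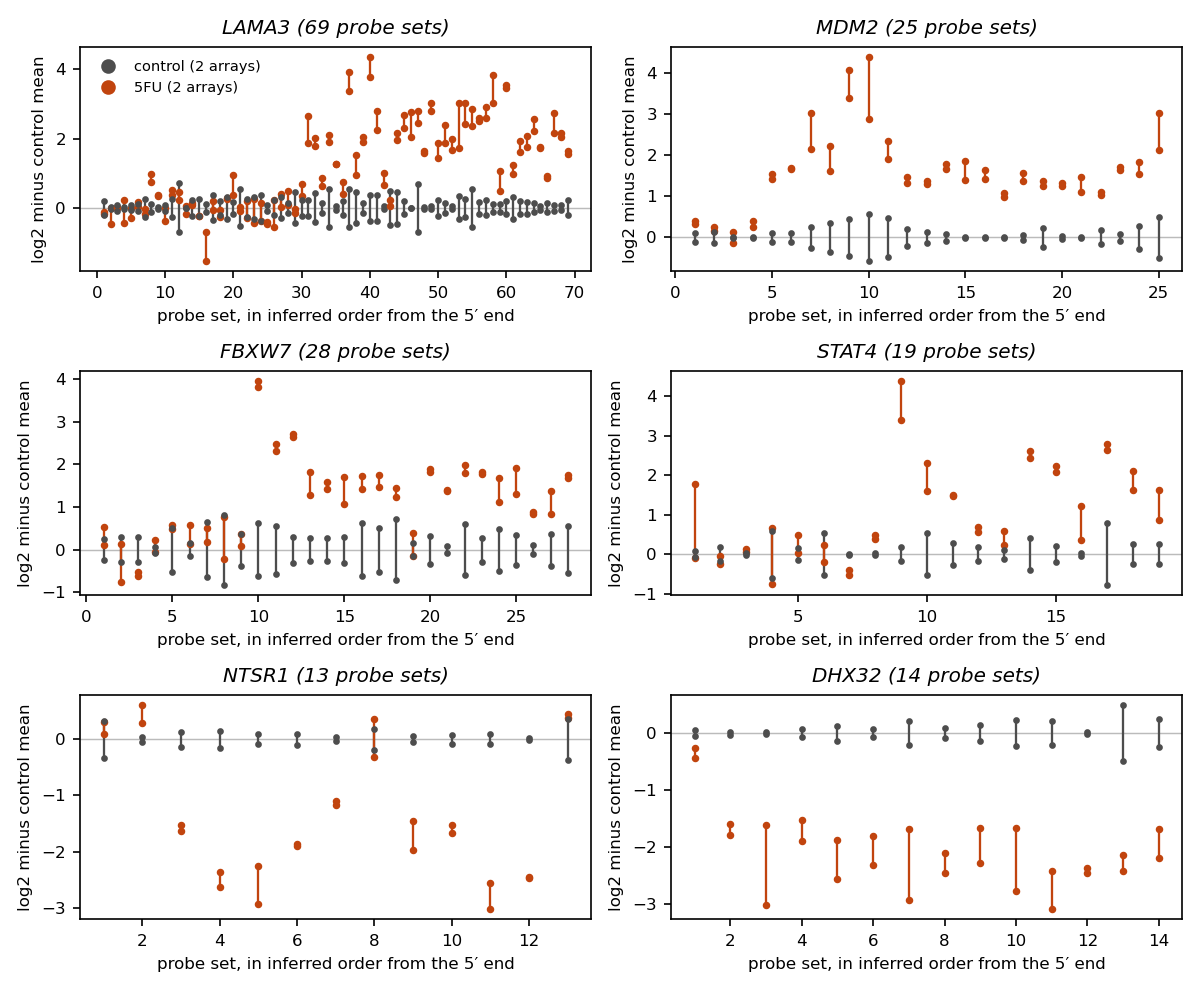
Probe sets of 6 genes in inferred order from the 5′ end (x axis), each array's log2 value minus the mean of the control arrays (y axis); grey points and bars are the 2 control arrays, orange the 2 5FU arrays. In LAMA3 the first 30 probe sets scatter from -1.11 to 0.87 around a median of -0.06, and the other 39 have a median of 2.06. In DHX32 the first differs by -0.35 and the other 13 lie from -2.75 to -1.70. Each split was set before the first probe set that counted as moved.

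LAMA3 showed the longest such run. In each gene below the split was set before the first moved probe set. A smaller difference in the 5′ run therefore follows in part from that rule. Its first 30 probe sets had a median difference of -0.06, from -1.11 to 0.87, and the other 39 one of 2.06, from 0.15 to 4.06. In PTPRE, a receptor-type phosphatase gene, the first 13 had a median of 0.03 and the other 19 one of 1.57. In STAT4 the first 8 had a median of 0.06 and the other 11 one of 1.87. MDM2 had 4 at 0.01 to 0.37 before 21 at 1.03 to 3.74. FBXW7, an F-box protein gene that did not pass the gene-level test and is named because its values were seen to step, had 9 with a median of 0.27 before 19 with a median of 1.58. Falls were split by the same rule. The first 4 of CALML4 had a median of -0.27 and the other 6 one of -1.92. In CMTM4 the first 3 had a median of -0.25 and the other 14 one of -1.72. The first probe set of DHX32 differed by -0.35, and the other 13 had a median of -2.22. NTSR1 was less regular: its first 2 were at 0.20 and 0.45, the other 11 ran from -2.78 to 0.41 with a median of -1.72, its last probe set did not fall, and its 5′ and 3′ parts, each the mean of its probe sets, differed from control by -1.32 and -1.35. GDF15, CDKN1A, SERPINB5, TLR3, HBEGF, TRIML2, FRK and ACER2 had no such 5′ run and no 3′ run.

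The same was measured for all genes by splitting each gene's ordered probe sets into a 5′ and a 3′ part of equal number, a step added after the profiles were seen. Over 10148 genes with at least 8 probe sets the 3′ difference minus the 5′ difference had a median of -0.01, and it was at least 1 in size in 26 genes (0.256%). Of the 41 called rises 31 had the larger difference in the 3′ part, with medians of 1.16 in the 5′ part and 1.55 in the 3′ part. All 10 called falls fell more in the 3′ part, with medians of -1.07 and -1.41. Among called genes the largest were LAMA3 (0.23 and 2.10), TP53I3 (1.44 and 3.10), FAS (1.38 and 2.91) and SUSD6 (0.94 and 2.32). DNAI3 went the other way, 2.31 in the 5′ part and 1.54 in the 3′ part. In LAMA3, TP53I3, FAS and SUSD6 some probe sets had control values below the filter. They passed it only through the 5FU and Nutlin-3 arrays, so the sizes for these genes are less certain. No gene passed limma's test of the difference between the parts (0 of 10148; 661 at an unadjusted p below 0.05; lowest adjusted p = 0.466), so these are descriptions. The median of 3′ level minus 5′ level was -0.02 and -0.14 on the control arrays and -0.13 and -0.05 on the 5FU arrays, so the groups overlapped in it.

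**Figure D4:**
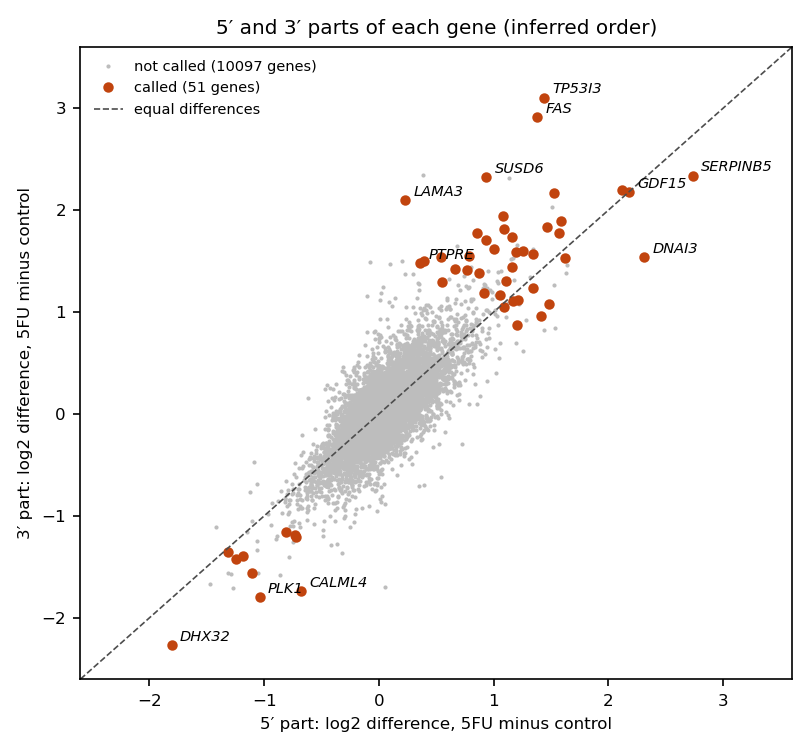
Log2 difference, 5FU minus control, of the 5′ part (x axis) and the 3′ part (y axis) of each of 10148 genes with at least 8 probe sets; orange points are the 51 called genes and the dashed line marks equal differences. Called rises lie mostly above the line and called falls below it, LAMA3 being farthest from it among the called genes at 0.23 and 2.10; IKBIP, which was not called, lies farther, at 0.38 and 2.35.

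Single probe sets were also compared with the mean of their gene. Over 263542 probe sets in 15991 genes limma called 0 (14076 at an unadjusted p below 0.05, lowest adjusted p = 0.417). The diffSplice function of limma, which pools variance over the probe sets of a gene, called 496 (0.188%), 357 higher and 139 lower, in 400 genes. It treats the probe sets of a gene as independent, although all were read on the same few arrays. Its p-values can therefore be too small, and its calls are given as descriptions. In genes that changed by at most 0.5, a probe set was described when it differed by at least 1, its groups did not overlap and its higher mean lay above 6.45, the upper quartile of probe-set means. This held for 1833 of 225809 probe sets (0.812%), 1270 higher (0.562%) and 563 lower (0.249%), in 1379 genes. The 12 with the widest gap between groups are given by value.

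NPRL2, a subunit of the GATOR1 complex that restrains mTORC1, differed by 0.28 over its 31 probe sets, while 1 probe set (2675294) read 4.25 and 3.99 in control and 6.76 and 6.98 after 5FU. NOSIP, an interactor of nitric oxide synthase, differed by 0.13, and its probe set 3867939 read 5.48 and 4.98 against 7.89 and 7.87. The ubiquitin ligase gene HECTD3 differed by 0.05, and its probe set 2409995 read 4.76 and 4.18 against 6.83 and 6.93. In these 3 genes 1 stretch was 5.31-fold to 6.75-fold higher while the gene means differed by 0.05 to 0.28. The control means of the probe sets of NPRL2 and HECTD3, and of VPS13B and MLX below, lay under the filter of 4.73, so their folds are less certain, and those of NPRL2 and MLX passed it only through the 5FU arrays. GAPDH, the glycolytic enzyme often used as a reference, differed by 0.16 over 24 probe sets, and its probe set 3402646 read 8.62 and 8.78 in control and 11.0019 and 10.66 after 5FU. The Nutlin-3 arrays read 8.72 and 8.53 on that probe set, level with control. NOM1, SVIL, VPS13B and MLX each held 1 probe set that was 4.33-fold to 4.93-fold higher. Of those lower, the probe set 3571562 of MIDEAS read 6.64 and 6.45 in control and 3.79 and 4.02 after 5FU, and 4.28 and 4.07 on the Nutlin-3 arrays. The probe sets of ITGB1BP1, NFATC1 and RPGR were 5.3-fold, 4.4-fold and 3.8-fold lower. By diffSplice 10 of the 12 passed, with VPS13B (adjusted p = 0.246) and RPGR (adjusted p = 0.178) the exceptions, and by limma none did. Over all probe sets tested, diffSplice called 0.188%. The 12 were chosen for their gaps on these same arrays, so their passing is not independent evidence.

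**Figure D5:**
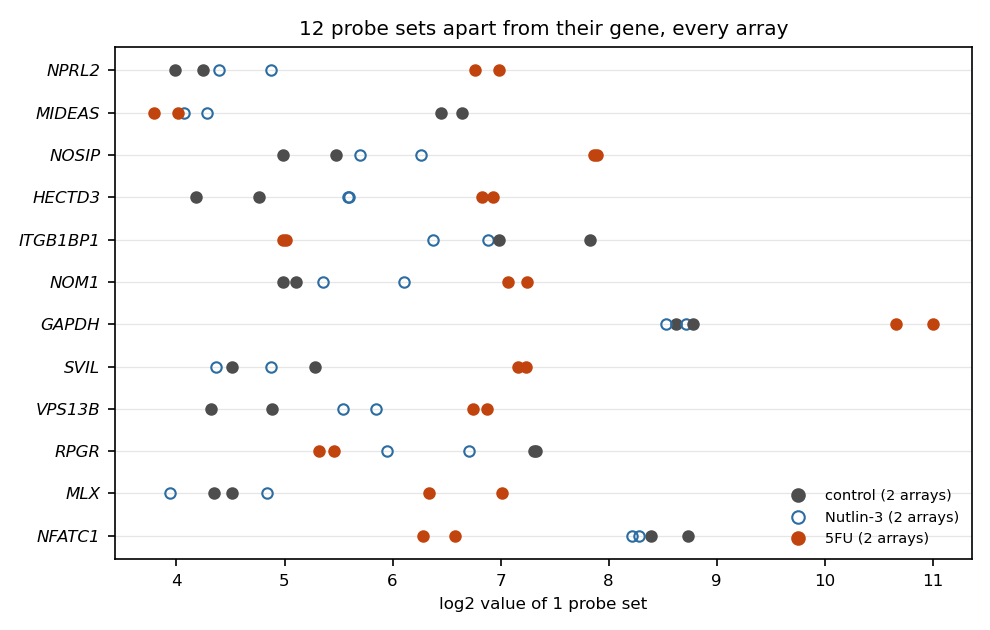
Log2 value of 1 probe set (x axis) in each of 12 genes on all 6 arrays: grey control, open blue Nutlin-3, orange 5FU, 2 points each. In every row the 5FU points lie apart from the control points; for GAPDH the Nutlin-3 points lie on the control points and for MIDEAS close to the 5FU points.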

How the data were processed

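Human Exon 1.0 ST arrays of HCT116 cells were read, 2 each for control, Nutlin-3 and 5FU. The authors deposited 1 log2 value per probe set and array; the submitters' processing notes name RMA, with no version or settings, and the genome build of the design is not given in these sources. Array medians over all probe sets were 4.73 to 4.78. Over the used probe sets they differed more, also within groups. They were 7.39 and 7.23 in control, 7.19 and 7.34 after Nutlin-3 and 7.27 and 7.39 after 5FU. Probe sets were named through the platform's annotation, and those with several symbols or none entered no gene.

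Gene levels are means of the log2 values of used probe sets. limma 3.58.1 in R 4.3.3 (lmFit, eBayes) was fitted over all 17841 genes and 6 arrays with group as the only term, leaving 3 residual degrees of freedom, with Benjamini-Hochberg adjustment at 0.05. Within genes, each probe set minus its gene's mean was tested likewise in genes with at least 4 probe sets, and by diffSplice. The scripts were tested on simulated data. Only 2 arrays a group limit the precision. Genes were named by rule: the 15 largest called rises and falls with at least 3 probe sets, up to 4 called genes of each list, or where none was called the 2 with the largest difference, and a fixed set of drug and p53 genes, 1 of which is not reported here. Other names were added after values were seen. The contrast and the lists were chosen with earlier results of these data known. Promoters are from RefSeq (GRCh38.p14), using each gene's first listed start.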

Additional observations from a re-analysis of the deposited data

Results flagged for a closer look

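Most probe sets of the array carry no gene symbol and entered no comparison above: 1038473 of them, of which 425342 had a mean above the filter. Among these the 2 groups lay at least 2 log2 units apart at 71 probe sets that were higher after 5FU and 2 that were lower, against 116 higher and 32 lower among 269135 named probe sets above the same filter. They are listed because they show a signal in probe sets that entered no gene's level, and limma called 0 of the probe sets it tested there. By number, 51 of the 73 lay between probe sets of 1 gene, all 51 higher and in 38 genes, and 20 of them in 8 called genes, MDM2, CDKN1A and FAS among these. The probe set 3421317, between probe sets of MDM2, read 3.49 and 4.0009 in control and 8.23 and 8.53 after 5FU. The probe set 3752771, between probe sets of MYO1D, read 2.45 and 2.57 against 6.40 and 6.79. The control values of both probe sets lay below the filter, so the sizes of their differences are less certain. The probe set 3752771 passed the filter only through the 5FU arrays. What these probe sets read was not tested.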

How the results depend on the processing

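The 80 called genes numbered 1 with the replicate block and 1 to 4 when 1 array was left out (3 without control replicate 1, 4 without control replicate 2, 1 without either 5FU replicate). They numbered 204 with arrays centred on the medians of their used probe sets, 199 after quantile normalization, 151 with only probe sets above the upper quartile and 39 with the median of a gene's probe sets. Chosen after seeing the data, centring on the medians of all probe sets gave 14. Control and 5FU arrays alone gave 63, trended and robust variances 74, no filter 60 and at least 4 probe sets a gene 80. All 80 kept their sign wherever measured; the cause of the changes in number was not tested. Within genes limma called 0 probe sets in all settings run except diffSplice, with 496. The labels state no pairing by replicate number. Deviations of same-numbered arrays correlated at -0.525 for control and 5FU, -0.565 for control and Nutlin-3 and 0.634 for Nutlin-3 and 5FU. With 2 arrays a group, crossing the numbers only turns the sign of each value, so these values cannot settle a pairing. The crossed pairing, added after seeing the data, called 1882 genes (1217 higher, 665 lower), and 12 for the difference between the 3′ and 5′ parts. These counts are therefore no evidence of a pairing. Some named genes that were not called changed sign: NEUROD1, at 0.30, was -0.0135 with no filter. Leaving out 1 array gave CEACAM6, at -0.39, from -0.99 to 0.22, DUT from -0.29 to 0.13, TYMP from -0.17 to 0.0449, TYMS from -0.01 to 0.14, UNG from -0.17 to 0.073 and UPP1 from -0.18 to 0.10. The median of the p53 targets ranged from 0.74 to 1.05 and that of the histones from -0.99 to -1.47 when 1 array was left out.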
